A study of Mus musculus with 12 samples.

Results

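The carnitine shuttle carries long-chain fatty acids into mitochondria, and etomoxir blocks its first enzyme. H3K27ac, histone H3 acetylated at lysine 27, was described here at the shuttle genes of 4T1 cells, a mouse mammary carcinoma line. The genes were chosen by name for their place in etomoxir's target system: Slc22a5, Cpt1a, Cpt1b, Cpt1c, Slc25a20, Cpt2 and Crat. Of the 126464 intervals in the table, 31 carried the name of a shuttle gene, and they belonged to 6 of the 7 genes. Cpt1a had 10 intervals, Slc25a20 had 8, Cpt2 had 5, Slc22a5 had 4, Cpt1b had 3 and Cpt1c had 1, whereas no row was named Crat.

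The cells were cultured for 48 h under 6 treatments: the vehicle, 5 mM acetate, 50 µM etomoxir, etomoxir with acetate, 50 µM SB204990 with etomoxir, and all 3 agents, each at the same dose throughout. No group received SB204990 without etomoxir. Each treatment had 2 libraries, 12 in all, whose names share a suffix across treatments, called set 1 and set 2. Neither the meaning of the suffix nor whether the libraries of a treatment came from separate cultures is given in the labels. Every value below is the number of reads in an interval multiplied by the spike-in factor of the library (scaled reads), and a gene value is the sum over all intervals named for the gene. In such bulk chromatin, more cells carrying the mark and more of the mark per cell cannot be told apart.

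Long-chain fatty acids are first joined to coenzyme A, and this form cannot cross the inner mitochondrial membrane. Carnitine enters the cell through the plasma membrane transporter encoded by Slc22a5. A carnitine palmitoyltransferase 1 (CPT1) on the outer mitochondrial membrane moves the acyl group from coenzyme A to carnitine, and this step is inhibited by malonyl-CoA in the cell and by etomoxir as a drug. Cpt1a encodes the form found in liver and most tissues, Cpt1b the muscle form and Cpt1c a form found in brain neurons. The carrier encoded by Slc25a20 exchanges acylcarnitine for carnitine across the inner membrane, and carnitine palmitoyltransferase 2, encoded by Cpt2, returns the acyl group to coenzyme A in the matrix for β-oxidation. Carnitine acetyltransferase, encoded by Crat, moves acetyl groups between carnitine and coenzyme A. Acetyl-CoA is the acetyl donor for histones, acetate can be converted to it, and SB204990 inhibits ATP citrate lyase, which makes it from citrate outside mitochondria.

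Reads in intervals ranged from 7179165 to 16676442 per library. The set 2 library of etomoxir + SB204990 stood apart with the fewest reads, and the calls of shuttle genes that moved without it are named below. Each set had 1 library with a spike-in factor of exactly 1 (etomoxir + acetate in set 1 and etomoxir + SB204990 in set 2), so the sets may not share a scale. Levels are therefore compared within sets. Each treatment had 1 library in each set, and a factor common to a set cancels in the log2 differences between treatments but adds to the spread within them, as it does to the SDs printed. Of 10 epithelial marker genes, 8 had intervals, with summed scaled reads from 8888 to 21590 per library, and Krt18 and Krt7 were the 2 without a row. Of 4 skeletal muscle markers, 2 had intervals, with sums from 38.2 to 121, whereas Myod1 and Myh2 had no row. All 4 neuron markers had intervals, with sums from 851 to 2330, but their shares were uneven. In the vehicle library of set 1, Stmn2 had 841 scaled reads and Syt1 had 9.82. Of 5 immune markers, 4 had intervals, with sums from 168.5 to 506, and of 4 endothelial markers 3 did, with sums from 466 to 1294. Of 3 hepatocyte markers 1 had intervals, Apoa1, with 748 to 2289. Markers of other tissues thus carried signal too.

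The sequences just ahead of the RefSeq starts of Cpt1a, Cpt2, Slc25a20 and Slc22a5 are shown because each lies inside the H3K27ac interval that carries most of the gene's signal or the largest part of it. They are from RefSeq on GRCm38.p6, 5′ to 3′ on the strand of the gene. Each ends at the RefSeq start or, if earlier, before the first exon base of the GENCODE annotation in the RefSeq window. For Cpt1a the printed bases lie downstream of the GENCODE gene start (3322334) used elsewhere. Capitals mark GGGCGG (the GC box) and CCAAT on either strand, where the whole match lies within the printed bases.
Cpt1a, chr19:3323051-3323284, + strand: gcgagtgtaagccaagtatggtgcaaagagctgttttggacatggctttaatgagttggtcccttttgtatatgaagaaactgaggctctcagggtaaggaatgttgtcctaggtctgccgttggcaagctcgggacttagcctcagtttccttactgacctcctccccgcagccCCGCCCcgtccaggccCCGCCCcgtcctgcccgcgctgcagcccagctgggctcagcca
Cpt2, chr4:107923611-107923839, - strand: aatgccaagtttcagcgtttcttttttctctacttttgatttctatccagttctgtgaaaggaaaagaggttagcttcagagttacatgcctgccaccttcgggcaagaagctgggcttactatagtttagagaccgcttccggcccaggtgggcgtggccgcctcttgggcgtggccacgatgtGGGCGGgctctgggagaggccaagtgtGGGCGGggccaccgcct
Slc25a20, chr9:108661886-108662087, + strand: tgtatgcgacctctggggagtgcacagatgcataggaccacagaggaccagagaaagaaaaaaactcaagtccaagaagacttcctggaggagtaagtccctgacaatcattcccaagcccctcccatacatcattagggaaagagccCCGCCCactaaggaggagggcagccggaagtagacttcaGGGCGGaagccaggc
Slc22a5, chr11:53891704-53891953, - strand: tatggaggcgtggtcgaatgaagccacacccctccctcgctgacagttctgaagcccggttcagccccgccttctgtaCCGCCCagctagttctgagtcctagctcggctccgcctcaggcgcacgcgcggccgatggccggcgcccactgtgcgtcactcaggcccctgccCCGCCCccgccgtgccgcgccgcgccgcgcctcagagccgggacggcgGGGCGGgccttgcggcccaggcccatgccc

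All 5 shuttle genes with a RefSeq window of 300 bases (250 before and 50 after the start) held GGGCGG, and 35.7% of all 32851 windows did. TATAAA was in none of the 5 and in 13.6% of all windows. CCAAT was found for Cpt1a and Cpt1c, and in 37.4% of all windows. Peroxisome proliferator-activated receptors, which bind fatty acids, are known to act through a direct repeat of AGGTCA with 1 base between the copies (DR1). With up to 1 mismatch on either strand, DR1 was in none of the 5 windows and in 0.554% of all windows.

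Within the intervals, DR1 was found 3 times in the one that covers the Cpt1a start and once, without a mismatch, in the next Cpt1a interval. These 4 matches are printed because they lie in the 2 Cpt1a intervals with the most signal, with the repeat in capitals and 8 bases on either side.
Cpt1a, chr19:3330485-3330497, + strand: ctgtggggAGGTCAGAGGACAgtttgtgg
Cpt1a, chr19:3341480-3341492, + strand: attcgtgtGGGTCAGAGGTCAgccgtgat
Cpt1a, chr19:3342007-3342019, + strand: gcatgtggAGGTCAGAGGTCAattgtctt
Cpt1a, chr19:3351929-3351941, - strand: aaaggtggAGGTCAGAGGTCAgatctctc

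The third and the fourth matched without a mismatch, and only the second lay outside masked repeat sequence. Of 703 intervals within 1.2-fold of the length of the Cpt1a start interval, 52.2% held at least 1 match with up to 1 mismatch, with a mean of 0.768. No share was counted for the next Cpt1a interval or for matches without a mismatch. The start intervals of Cpt2, Slc25a20 and Slc22a5 held none, against 12.7%, 7.77% and 5.20% of intervals of like length. The intervals over the starts of Crat, Cpt1b and Cpt1c held 4, 1 and 1 matches, each with 1 mismatch, and 88%, 30.5% and 3.96% of intervals of like length held at least 1. A match is a string of letters and not an observed binding site.

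The signal of Cpt1a was dominated by 1 broad interval. It spanned 26495 bp (chr19:3320685-3347179, mm10), covered the annotated gene start and ran on into the gene, and held 74.5% of the scaled reads of the gene. At 49.7 scaled reads per kb it stood at percentile 74.9 of 9190 intervals that cover a gene start, and by length at percentile 92.6. The start interval of Cpt2 spanned 6042 bp (chr4:107917845-107923886) with 83.6% of the gene sum and 28.8 scaled reads per kb. That of Slc25a20 spanned 3234 bp (chr9:108661002-108664235) with 57.0% and 26.6 per kb, and that of Slc22a5 spanned 2210 bp (chr11:53890570-53892779) with 49.2% and 25.0 per kb. The median start interval of all genes had 38.2 scaled reads per kb over 5790 bp, so by level per kb only the Cpt1a interval of these 4 was above it. The table gave the Cpt1a start interval a distance of -42412 bp, although the interval contains the gene start in GENCODE.

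The starts of the other 3 genes lay in intervals that the table named for neighbours. The start of Crat was inside an interval of 71054 bp named Ptpa (chr2:30407270-30478323), that of Cpt1b in one of 12910 bp named C730034F03Rik (chr15:89424084-89436993) and that of Cpt1c in one of 1867 bp named 6530437J22Rik (chr7:44973325-44975191). The first and the second also hold the starts of other genes. As none of the 3 was named for a shuttle gene, they were not added to the gene sums.

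Slc22a5, the carnitine importer, had 75.3 and 94.3 scaled reads in the vehicle libraries of set 1 and set 2, and 121 and 125 with acetate. The values were 91.4 and 89.9 with etomoxir, 187 and 183 with etomoxir + acetate, 60.5 and 81.0 with etomoxir + SB204990, and 113 and 124 with etomoxir + SB204990 + acetate. Within each set the lowest level was that of etomoxir + SB204990, and the highest 3 were, in rising order, etomoxir + SB204990 + acetate, acetate and etomoxir + acetate. Etomoxir was above vehicle in set 1 and below it in set 2. The log2 ratio of etomoxir + SB204990 to vehicle was -0.31 in set 1 and -0.22 in set 2.

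Cpt1a, which encodes the target of etomoxir in most tissues, had 809.6 and 1072 scaled reads with vehicle, 1351 and 1502 with acetate, 1669 and 1650 with etomoxir, and 2883 and 2667 with etomoxir + acetate. With SB204990 added, the values were 1244 and 1644 without acetate and 2024 and 2706 with it. In both sets etomoxir was above vehicle and etomoxir + acetate above acetate. From low to high the means were 941 ± 186 (SD, n = 2) for vehicle, 1426 ± 107 for acetate, 1444 ± 283 for etomoxir + SB204990, 1660 ± 13.8 for etomoxir, 2365 ± 482 for etomoxir + SB204990 + acetate and 2775 ± 153 for etomoxir + acetate. Within sets, vehicle was lowest and etomoxir lay above acetate and etomoxir + SB204990 in both, whereas acetate and etomoxir + SB204990 changed places between the sets, as did the groups at the top. The means of etomoxir + SB204990 and etomoxir differed by less than the SD of the former.

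Cpt1b and Cpt1c had few reads in the intervals named for them. For Cpt1b, the muscle form, the 12 libraries held between 29 and 52 reads, and the scaled sums ranged from 15.9 to 49.9. Cpt1b had 46.0 and 49.9 with etomoxir + acetate, above every other library, whereas etomoxir (21.7 and 16.6) was above vehicle (15.9 and 26.2) in set 1 and below it in set 2. For Cpt1c, the neuronal form, 3 to 15 reads were found in its 1 interval, a mean of 5.89 scaled reads, which was under the minimum of 10 for testing. The intervals over their starts, named for other genes, held more, with a mean of 356 scaled reads (218 to 511) for Cpt1b and 39.1 (18.7 to 57.6) for Cpt1c.

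Slc25a20, the carrier of the inner membrane, had 76.7 and 116 scaled reads with vehicle, 139 and 129 with acetate, 144 and 127 with etomoxir, and 258 and 238 with etomoxir + acetate. The values were 90.4 and 154 with etomoxir + SB204990 and 153 and 187 with etomoxir + SB204990 + acetate. In both sets vehicle was lowest, etomoxir + acetate highest and etomoxir + SB204990 + acetate next to it. Etomoxir + SB204990 was below acetate and etomoxir in set 1 and above both in set 2.

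Cpt2, the enzyme of the matrix side, had 105 and 120 scaled reads with vehicle, 152 and 175 with acetate, 206 and 184 with etomoxir, and 390 and 305 with etomoxir + acetate. With etomoxir + SB204990 the values were 150 and 187, and with acetate added to both inhibitors 234 and 289. From low to high the means were 112 ± 10.2 (SD, n = 2) for vehicle, 164 ± 16.1 for acetate, 168 ± 26.3 for etomoxir + SB204990, 195 ± 15.9 for etomoxir, 262 ± 38.7 for etomoxir + SB204990 + acetate and 348 ± 59.9 for etomoxir + acetate. This is the order found for Cpt1a. Within sets, vehicle was lowest and the top 2 kept this order, whereas etomoxir + SB204990 was below acetate and etomoxir in set 1 and above both in set 2.

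**Figure D1:**
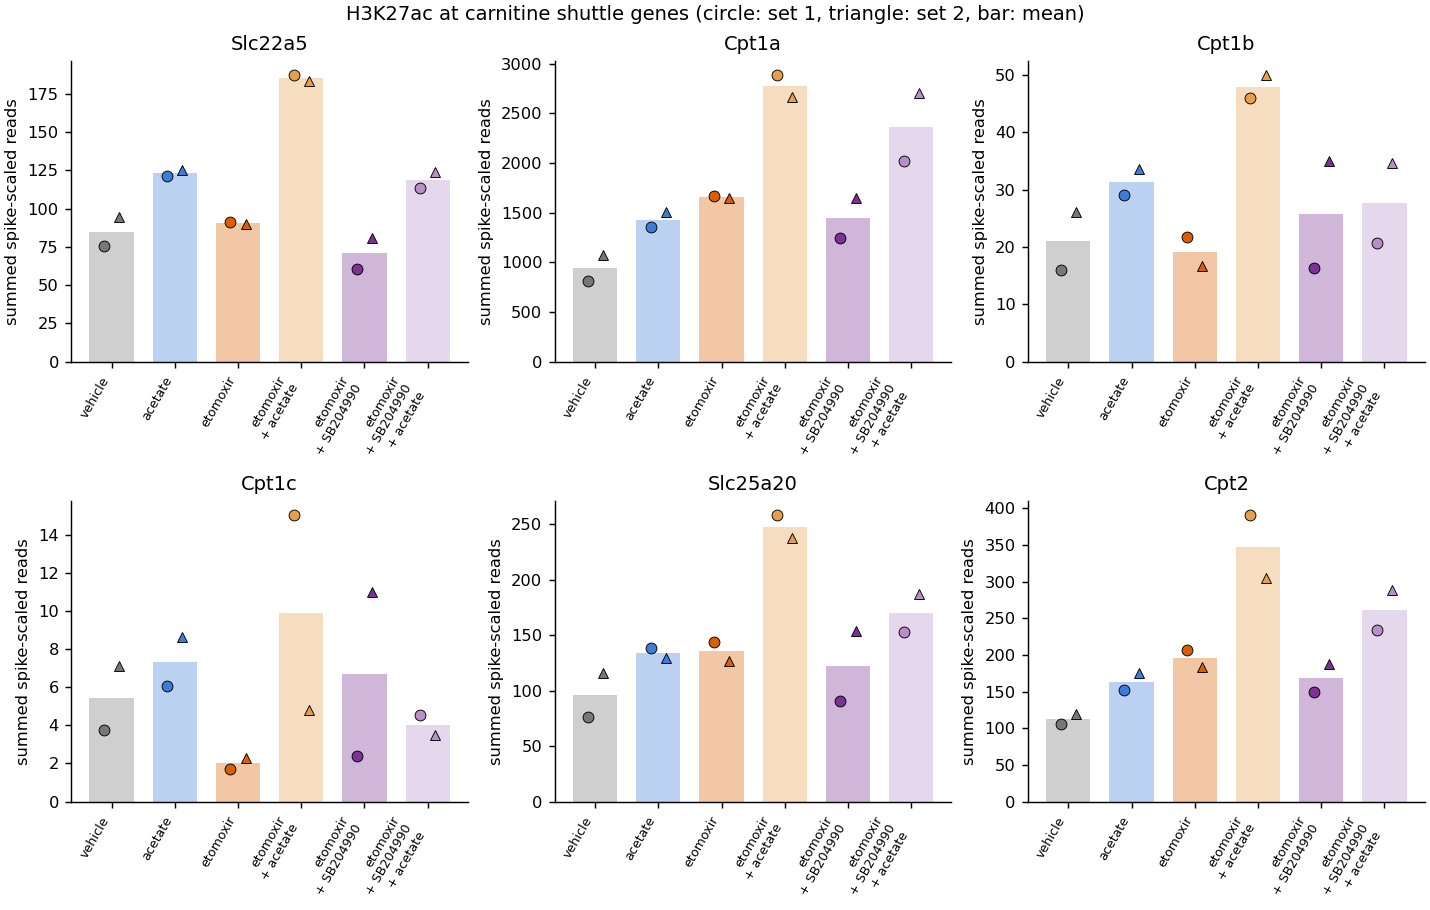
Summed spike-scaled reads (vertical axis, from 0) of the 6 shuttle genes with intervals in the 6 treatments. Circles are set 1, triangles set 2 and bars the mean of the 2 libraries; the etomoxir + acetate bar is the highest in each panel, at 2775 for Cpt1a and 348 for Cpt2.

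The interval with the start of Crat also holds the starts of Ptpa and Ier5l. It had 3437 and 3797 scaled reads with vehicle and 3755 and 3841 with etomoxir. It had 4856 and 4559 with acetate, 5854 and 5574 with etomoxir + acetate, 2778 and 2898 with etomoxir + SB204990, and 3897 and 5495 with etomoxir + SB204990 + acetate. Its log2 fold change for etomoxir + acetate against acetate was 0.28 ± 0.17 (SE, in limma over the 11203 genes with a start interval), against a median of 0.37 over those genes. The interval with the Cpt1b start gave 0.41 ± 0.18 and that with the Cpt1c start 0.19 ± 0.29 in the same fit.

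A spike-in factor multiplies all reads of a library alike, so ratios between genes of the same library do not depend on it. The ratio of Cpt1a reads to Slc22a5 reads was 10.8 to 12.02 in the 4 libraries without etomoxir and 14.5 to 21.8 in the 8 with it. Cpt2 over Slc22a5 was 1.254 to 1.40 without etomoxir and 1.67 to 2.47 with it, and Slc25a20 over Slc22a5 was 1.02 to 1.23 without and 1.30 to 1.90 with it. In each of these 3 ratios the libraries with and without etomoxir did not overlap. Of the 19457 other tested genes, these 3 included, 0.447% had a ratio to Slc22a5 that was higher in all libraries with etomoxir than in all without, and nothing is read from this. Cpt1a over Cpt2 was 7.70 to 8.96 without etomoxir and 7.39 to 9.37 with it, so these 2 genes kept to 1 range, and Cpt1a over Slc25a20 (9.27 to 11.6 and 10.7 to 14.4) overlapped too. The ratios are a description, as the genes were picked with earlier results known.

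**Figure D2:**
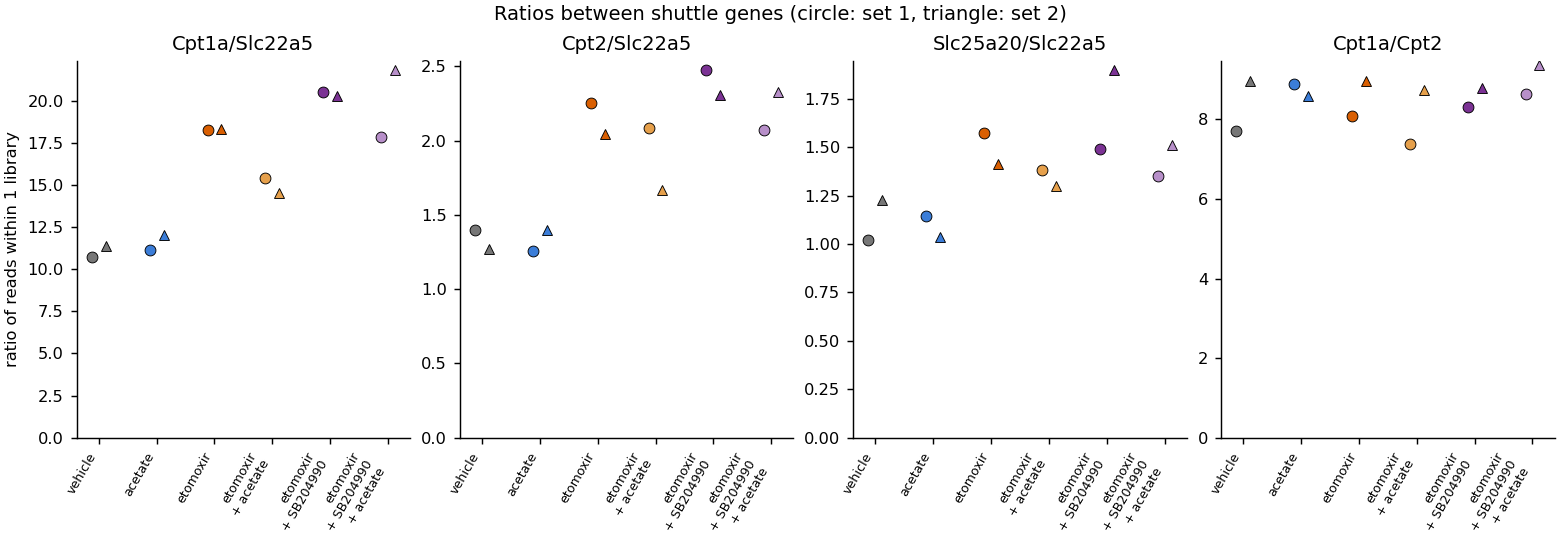
Ratio of reads between pairs of shuttle genes within 1 library (vertical axis, from 0) in the 6 treatments, with set 1 as circles and set 2 as triangles. Cpt1a, Cpt2 and Slc25a20 over Slc22a5 are higher in all 8 libraries with etomoxir than in the 4 without, for Cpt1a 14.5 to 21.8 against 10.8 to 12.02, whereas Cpt1a over Cpt2 overlaps.

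The etomoxir comparisons were then fitted over all 19458 genes with a mean of at least 10 scaled reads, with limma on log2(scaled reads + 1), and p-values adjusted by Benjamini-Hochberg, with a call at under 0.05. Earlier results for etomoxir were known when the genes were picked, and which values led to the choice is not recorded. All comparisons of etomoxir with no inhibitor are therefore a description, with calls listed beside those over all genes and nothing read from them. The log2 fold changes were 0.83 ± 0.19 (SE) for Cpt1a, 0.79 ± 0.24 for Cpt2, 0.52 ± 0.28 for Slc25a20, 0.10 ± 0.27 for Slc22a5 and -0.10 ± 0.46 for Cpt1b, and the median of all genes was 0.14. None of the 5 was called and 0.0154% of all genes were. With the set number as a block, Cpt1a was called, beside 17 of all genes. Without set 1 or set 2 of etomoxir + SB204990, Cpt1a and Cpt2 were called, beside 40 and 39 of all genes. For etomoxir + SB204990 against vehicle, which uses the same vehicle libraries, the values were 0.62 for Cpt1a, 0.57 for Cpt2, 0.32 for Slc25a20, 0.22 for Cpt1b and -0.26 for Slc22a5, with a median of -0.18 over all genes. Again no shuttle gene was called (background 0.00514%). Without set 1 of etomoxir + SB204990 Cpt1a and Cpt2 were called, beside 1091 of all genes, and without set 2 no shuttle gene was, beside 2401. Averaged without and with acetate, the etomoxir comparison gave 0.90 ± 0.14 for Cpt1a (rank 64 of 19458), 0.93 ± 0.17 for Cpt2 (rank 45), 0.70 ± 0.19 for Slc25a20 (rank 250), 0.34 ± 0.19 for Slc22a5 and 0.25 ± 0.32 for Cpt1b. Cpt1a and Cpt2 were called, beside 0.298% of all genes. With the set number as a block Slc25a20 was called too, beside 262 of all genes. The Cpt2 call was lost without the set 1 library of acetate, etomoxir or etomoxir + acetate, and Slc25a20 was called without set 1 or set 2 of etomoxir + SB204990, where calls over all genes went from 58 to 6300 and 6360.

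In cells that received acetate, etomoxir + acetate was compared with acetate. The log2 fold changes were 0.96 ± 0.19 for Cpt1a, 1.08 ± 0.24 for Cpt2, 0.88 ± 0.28 for Slc25a20, 0.59 ± 0.27 for Slc22a5 and 0.60 ± 0.46 for Cpt1b. The log2 ratio of Cpt1a was 1.09 in set 1 and 0.83 in set 2, and that of Cpt2 was 1.35 and 0.80. The median of all genes was 0.43, and relative to it Cpt1a stood 0.53 higher, Cpt2 0.64, Slc25a20 0.45, Slc22a5 0.15 and Cpt1b 0.17. Cpt1a was called in limma, beside 0.0771% of all genes, and edgeR on the recovered reads called 0 of the 5 (13 of all genes, and 6407 at an unadjusted p under 0.05). With the set number as a block Cpt2 was called too, beside 61 of all genes. The Cpt1a call was lost when any of 8 libraries was left out in turn, namely each library of acetate, etomoxir, etomoxir + acetate and etomoxir + SB204990 + acetate, and in those fits limma called 2 to 13 of all genes. Without set 1 or set 2 of etomoxir + SB204990, limma called Cpt2, Slc25a20 and Slc22a5 too, and calls over all genes went from 15 to 8395 and 8455. Cpt2 was also called without set 2 of vehicle (27 of all genes).

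With both inhibitors and acetate against acetate, the log2 fold changes were 0.72 ± 0.19 for Cpt1a, 0.67 ± 0.24 for Cpt2, 0.33 ± 0.28 for Slc25a20, -0.05 ± 0.27 for Slc22a5 and -0.21 ± 0.46 for Cpt1b. The median over all genes was -0.02. None of the 5 was called in limma (background 0.0514%), and edgeR called 0 of the 5 as well. This comparison shares its acetate libraries with the one above. Leaving out either the set 1 or the set 2 library of etomoxir + SB204990 led to a call of Cpt1a here, with 26 of all genes called in each fit. The test of whether the etomoxir difference changed with acetate gave 0.13 ± 0.27 for Cpt1a and 0.29 ± 0.33 for Cpt2, and called 0% of all genes in limma and in edgeR (31 and 38 at an unadjusted p under 0.05).

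Taking out the overall level changed the size of these values and little of their order. Under median-of-ratios scaling, which sets the typical gene to no change, the averaged etomoxir comparison gave 0.55 for Cpt1a (rank 69 of 19418), 0.59 for Cpt2 (rank 48), 0.35 for Slc25a20 (rank 260), -0.00 for Slc22a5 and -0.09 for Cpt1b, with a median of -0.06 over all genes. The scaling moved that median from 0.29. On this scale limma called no shuttle gene in any comparison, and for etomoxir + acetate against acetate Cpt1a had 0.42 ± 0.19 and Cpt2 0.54 ± 0.19.

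**Figure D3:**
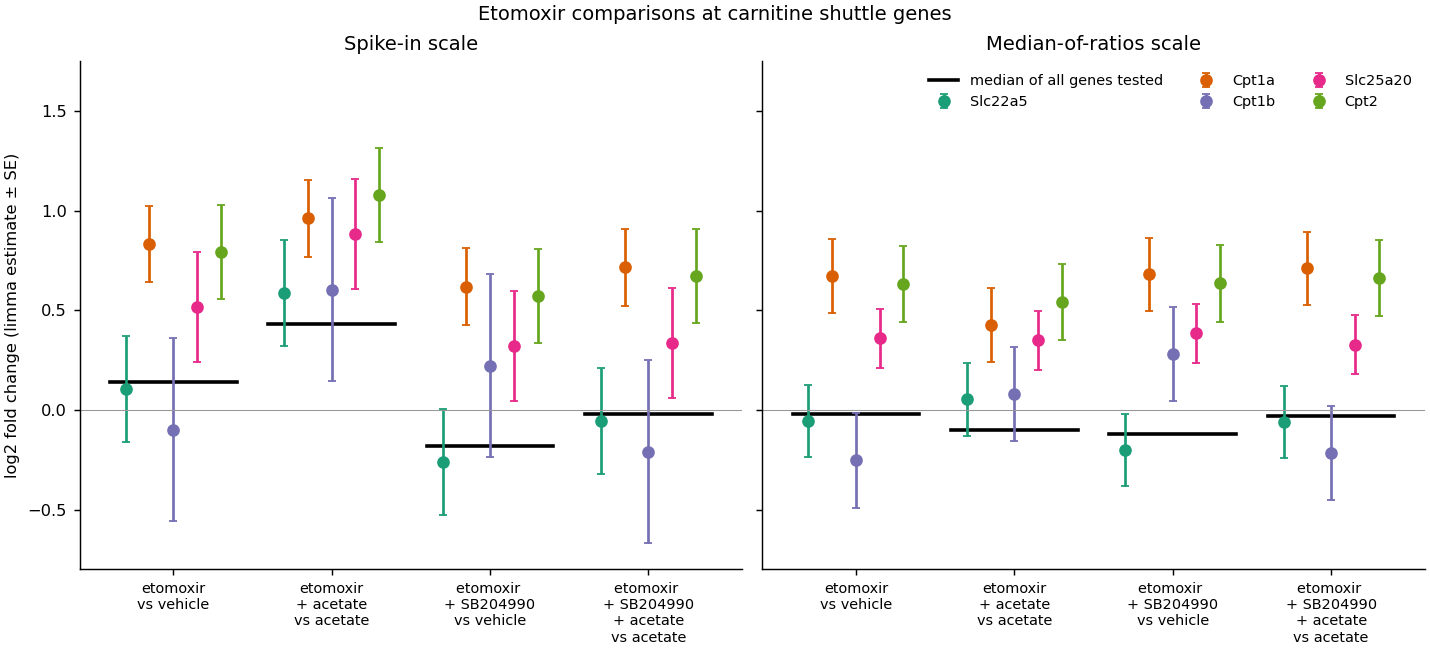
Log2 fold change with its SE (vertical axis) of the 5 tested shuttle genes in 4 etomoxir comparisons, on the spike-in scale (left) and the median-of-ratios scale (right); black bars are the median of all genes tested. Cpt1a, Cpt2 and Slc25a20 lie above the black bar in each comparison on both scales, and the Slc22a5 estimate differs from it by 0.15 or less on the spike-in scale.

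Single intervals were fitted in the same way, again as a description, over 63903 with a mean of at least 10, of which 18 were named for shuttle genes. The Cpt1a start interval had 589.9 and 755.9 scaled reads with vehicle, 988.2 and 1036 with acetate, 1266 and 1322 with etomoxir, and 2077 and 1964 with etomoxir + acetate. With etomoxir + SB204990 it had 1007 and 1172, and with acetate added 1529 and 2098. The groups with etomoxir were above their counterparts without it in both sets. Its log2 fold change was 1.00 ± 0.18 for etomoxir + acetate against acetate and 0.82 ± 0.18 for both inhibitors and acetate against acetate. The next Cpt1a interval (chr19:3348695-3355520) had 1.04 ± 0.24 in the first of these comparisons and 0.68 ± 0.24 in the second. In limma the start interval was called in both and the next one in the first. The first call of the start interval was lost without the set 1 library of acetate or of etomoxir + acetate. Its second call was lost without any of 7 libraries (both of acetate, etomoxir and etomoxir + acetate, and set 2 of etomoxir + SB204990 + acetate). The call of the next interval was lost without any of the 8 libraries named above for the Cpt1a sum.

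The Cpt2 start interval had 90.7 and 97.5 scaled reads with vehicle, 128 and 139 with acetate, 175 and 158 with etomoxir, and 317 and 246 with etomoxir + acetate. Its log2 fold change was 1.06 ± 0.23 for etomoxir + acetate against acetate, which was called in limma, and 0.75 ± 0.23 with both inhibitors and acetate, which was not. The call was lost without either library of acetate or of etomoxir + acetate. On the median-of-ratios scale, fitted over start intervals alone, those of Cpt1a and Cpt2 had 0.46 and 0.53 for etomoxir + acetate against acetate, and neither was called. Of the 18 shuttle intervals 3 were called in the first comparison, beside 0.155% of all intervals, and 1 in the second, beside 0.0438%, and nothing is read from these counts. In the fit over all tested intervals, those over the starts of Slc25a20 (0.77 ± 0.28) and Slc22a5 (0.51 ± 0.32) were not called in the first comparison. In the averaged comparison the same 3 intervals had 0.97, 0.80 and 0.94 and were called, beside 0.421% of all intervals, and the second of these was not called without the set 1 library of vehicle, acetate, etomoxir or etomoxir + acetate. Without set 1 or set 2 of etomoxir + SB204990, limma called 10 of the 18 in the averaged comparison, beside 6965 and 6960 of all intervals, and 9 of the 18 for etomoxir + acetate against acetate, beside 10637 and 10658.

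The averaged values of the 9 tested Cpt1a intervals ranged from 0.38 to 1.03. The interval that the table places nearest to its annotated start, toward the 3′ end of the gene (chr19:3374525-3380114), had 0.38 ± 0.18, and chr19:3360371-3363106 had 0.87 ± 0.24. Outside the rule for naming, because their means were under 50, and picked after their values were seen, chr19:3370642-3371117 had the highest value, 1.03 ± 0.39, and chr19:3380937-3382526 had 0.86 ± 0.30. Among intervals within 100000 bp of the gene start that were named for other genes, 8 around Cpt1a had values from 0.13 to 0.59 and 16 around Cpt2 from -0.21 to 0.76. Around Slc25a20, 17 such intervals ranged from 0.22 to 0.91 and around Slc22a5, 15 ranged from 0.02 to 0.61. Of those around Slc25a20, intervals named Prkar2a at chr9:108682106-108683177 (0.91) and chr9:108684516-108684905 (0.83) lay inside the gene and across its end. None of these neighbouring intervals was called. The median of the 9 tested Cpt1a intervals was 0.80 and that of the 8 neighbours 0.46. For Cpt2 the medians were 0.94 over 2 own intervals and 0.32 over the neighbours, for Slc25a20 0.66 over 3 and 0.39, and for Slc22a5 0.37 over 3 and 0.17. No test of own against neighbouring intervals was made.

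**Figure D4:**
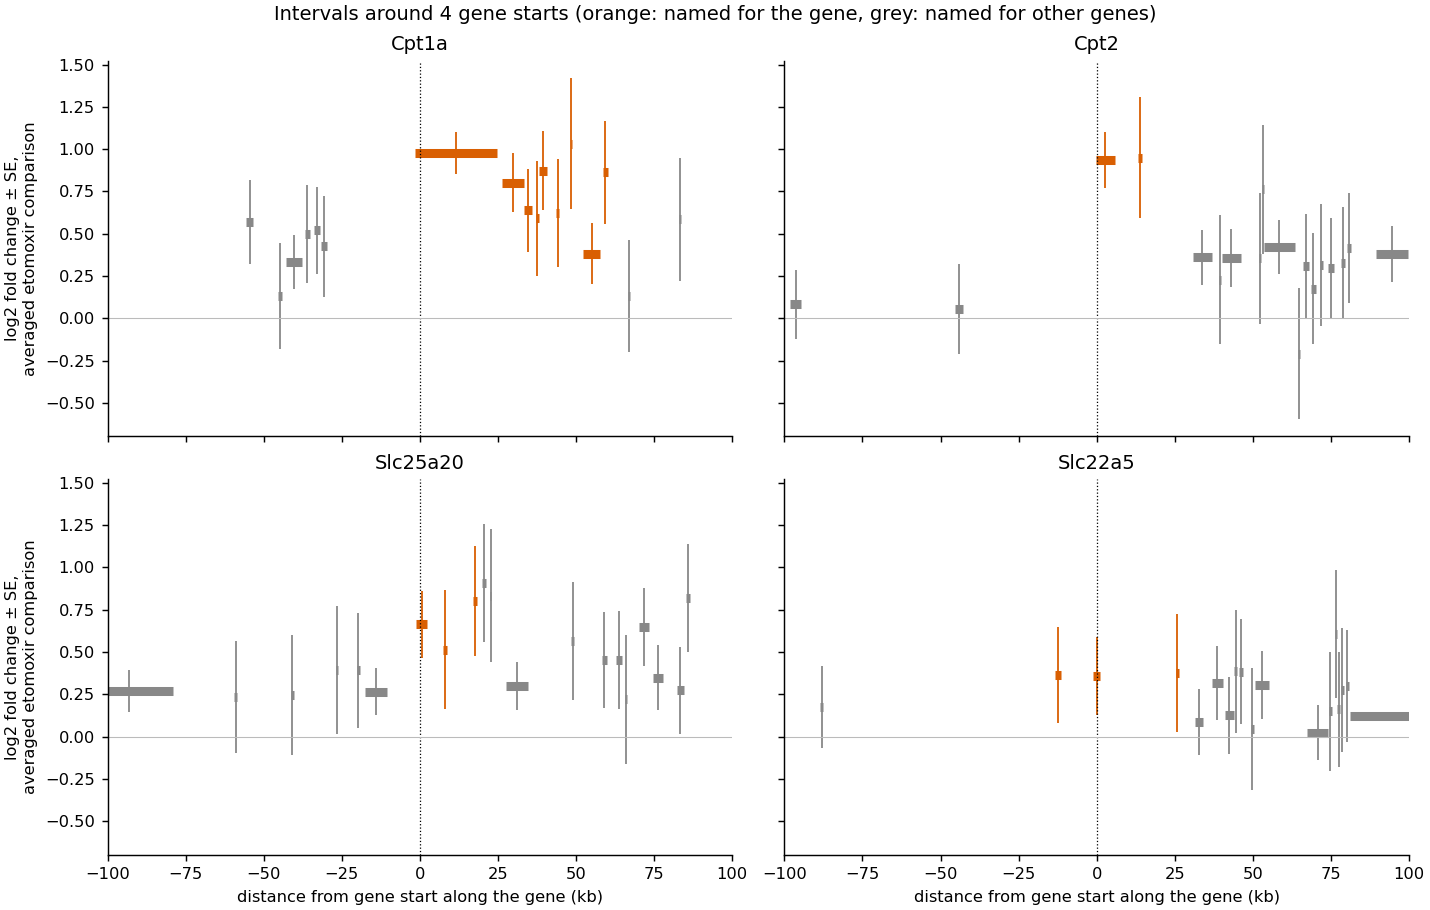
Log2 fold change with its SE (vertical axis) of each tested interval in the averaged etomoxir comparison, by distance from the start of Cpt1a, Cpt2, Slc25a20 and Slc22a5 along the gene (horizontal axis, kb; bar width is interval length). Orange intervals are named for the gene and grey ones for other genes, although grey intervals named Prkar2a lie inside Slc25a20 and across its end. The Cpt1a and Cpt2 start intervals, at 0.97 and 0.94, are above all grey intervals in their panels. Those of Slc25a20 (0.66) and Slc22a5 (0.36) are each below 3 grey intervals.

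Among the 11203 genes with an interval over the start, the start intervals of Cpt1a, Cpt2 and Slc25a20 ranked 5, 7 and 46 from the top in the averaged etomoxir comparison. For etomoxir + acetate against acetate they ranked 30, 24 and 146, and for both inhibitors and acetate against acetate 8, 15 and 61. Slc22a5 ranked 1464, 1478 and 9818 and Crat 9546, 8923 and 5491 in the same comparisons. The ranks are a description and the last of these comparisons shares the acetate libraries with the others. In this fit the start intervals of Cpt1a (0.95 ± 0.18) and Cpt2 (0.81 ± 0.19) were called for etomoxir against vehicle (adjusted p = 0.00016 and 0.012 in limma). That of Slc25a20 was called for etomoxir + acetate against acetate (0.77 ± 0.22, adjusted p = 0.047). Calls over all genes in this fit are given further below, and nothing is read from these calls.

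Acetate was compared next. Averaged over the 3 inhibitor backgrounds, all 5 tested shuttle genes rose with acetate in limma, by 0.69 ± 0.11 for Cpt1a (adjusted p = 2.1e-05), 0.66 ± 0.14 for Cpt2 (0.00013), 0.63 ± 0.16 for Slc25a20 (0.00090), 0.77 ± 0.15 for Slc22a5 (0.00010) and 0.68 ± 0.27 for Cpt1b (0.020). So did 88.2% of all genes, whose median was 0.63, and relative to it the 5 genes lay between -0.00 and 0.14. The Cpt1b call was lost without any of 4 libraries (vehicle set 1, and set 2 of acetate, etomoxir and etomoxir + SB204990 + acetate; adjusted p from 6.3e-05 to 0.079 over all 12 such fits). Of the 18 shuttle intervals 17 were called, and 77.2% of all intervals were. Under median-of-ratios scaling the 5 values lay between -0.01 for Slc25a20 and 0.13 for Slc22a5, and none was called.

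In single backgrounds, acetate against vehicle gave 0.61 for Cpt1a, 0.54 for Cpt2, 0.50 for Slc25a20, 0.54 for Slc22a5 and 0.59 for Cpt1b. None was called in limma, nor was any gene (0% of all genes), although 8341 had an unadjusted p under 0.05 (edgeR called 0, with 8382). Without set 1 or set 2 of etomoxir + SB204990, limma called Cpt1a, Cpt2, Slc25a20 and Slc22a5, beside 11880 and 11913 of all genes, and without either library of etomoxir + SB204990 + acetate Cpt1a, beside 2317 and 2316. With the set number as a block Cpt1a was called (adjusted p = 0.042), beside 3888 of all genes. Etomoxir + acetate against etomoxir gave a rise of all 5 genes, from 0.74 for Cpt1a to 1.29 for Cpt1b (adjusted p from 0.0034 to 0.016), against a background of 78.2% and a median of 0.79 over all genes. Under median-of-ratios scaling Cpt1a (-0.13) and Cpt2 (-0.05) had the opposite sign, Slc25a20 had 0.00, and none of the 5 was called. Without set 1 of etomoxir + acetate or set 2 of etomoxir the calls of Cpt2, Slc25a20 and Cpt1b were lost, and that of Cpt1b also without set 2 of etomoxir + acetate (adjusted p up to 0.11). Calls over all genes went from 15211 to 5603, 7368 and 11146 in these 3 fits. With both inhibitors, acetate raised Cpt1a by 0.71 (adjusted p = 0.0079), Cpt2 by 0.63 (0.027) and Slc22a5 by 0.75 (0.022), against a background of 57.7% and a median of 0.64 over all genes, and Slc25a20 had 0.52 (0.10) and Cpt1b 0.16 (0.76). On the median-of-ratios scale the last 2 genes had the opposite sign (-0.05 and -0.39). These 3 calls were lost without set 1 of etomoxir + SB204990 or set 2 of etomoxir + SB204990 + acetate (adjusted p up to 0.20), and Slc25a20 was called without set 2 of etomoxir + SB204990 (0.00071). Over all genes the calls went from 11230 to 4529, 0 and 17778 in these fits.

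SB204990 was given only on top of etomoxir. Averaged without and with acetate, the log2 fold changes were -0.50 ± 0.19 for Slc22a5 (adjusted p = 0.037 in limma), -0.37 ± 0.19 for Slc25a20 (0.11), -0.31 ± 0.17 for Cpt2 (0.11), -0.25 ± 0.32 for Cpt1b (0.50) and -0.23 ± 0.14 for Cpt1a (0.15). Slc22a5 was the 1 gene called, and 45% of all genes were, with a median of -0.40. Relative to that median Slc22a5 lay at -0.10 and Cpt1a at 0.17. The Slc22a5 call was lost when any of 8 libraries was left out (adjusted p from 0.0010 to 0.13 over all 12 such fits), namely set 1 of all groups except vehicle and set 2 of acetate, etomoxir and etomoxir + acetate. In 5 of these 8 fits 0 of all genes were called, and in the other 3 from 4832 to 5794. Without the set 2 library of etomoxir + SB204990 the values were -0.61 for Slc22a5, -0.56 for Slc25a20, -0.39 for Cpt2 and -0.33 for Cpt1a, and these 4 were called (adjusted p from 0.0010 to 0.017), as were 16566 of all genes. Cpt1a was also called without set 2 of etomoxir + SB204990 + acetate, where 10646 of all genes were. Under median-of-ratios scaling Cpt1a (0.15), Cpt1b (0.12) and Cpt2 (0.06) had the opposite sign and Slc25a20 had 0.00. Slc22a5 had -0.13 ± 0.13 on that scale and was not called.

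The steps on either side of the shuttle were counted in the averaged etomoxir comparison, from lists chosen with earlier results known. The values are a description, and nothing is read from the calls, which took in 0.298% of all genes. Of 4 tested genes of malonyl-CoA and its control, 1 was called: Mlycd, which encodes malonyl-CoA decarboxylase, the enzyme that removes the natural inhibitor of CPT1, with 0.91 ± 0.18. Acaca, Acacb and Prkaa1 were the other 3, and Prkaa2 had no interval. None was called of 5 acyl-CoA synthetases ahead of the shuttle (0.19 to 0.51), of 4 genes of carnitine synthesis (0.02 to 0.67, the highest being Aldh9a1, while Bbox1 had no interval), of 5 other carnitine acyltransferase and carrier genes (0.22 to 0.41) or of 6 matrix enzymes of β-oxidation (0.33 to 0.63, with Hadha at 0.63 and Acadl at 0.58). With etomoxir + acetate against acetate 0 genes of these 5 lists were called, beside 0.0771% of all genes, and Mlycd had 1.03 ± 0.26. With acetate averaged over backgrounds, 5 of 5, 4 of 4, 3 of 4, 5 of 5 and 6 of 6 were called higher, in the order makers, malonyl-CoA, synthesis, carriers and matrix enzymes, beside 88.2% of all genes.

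**Figure D5:**
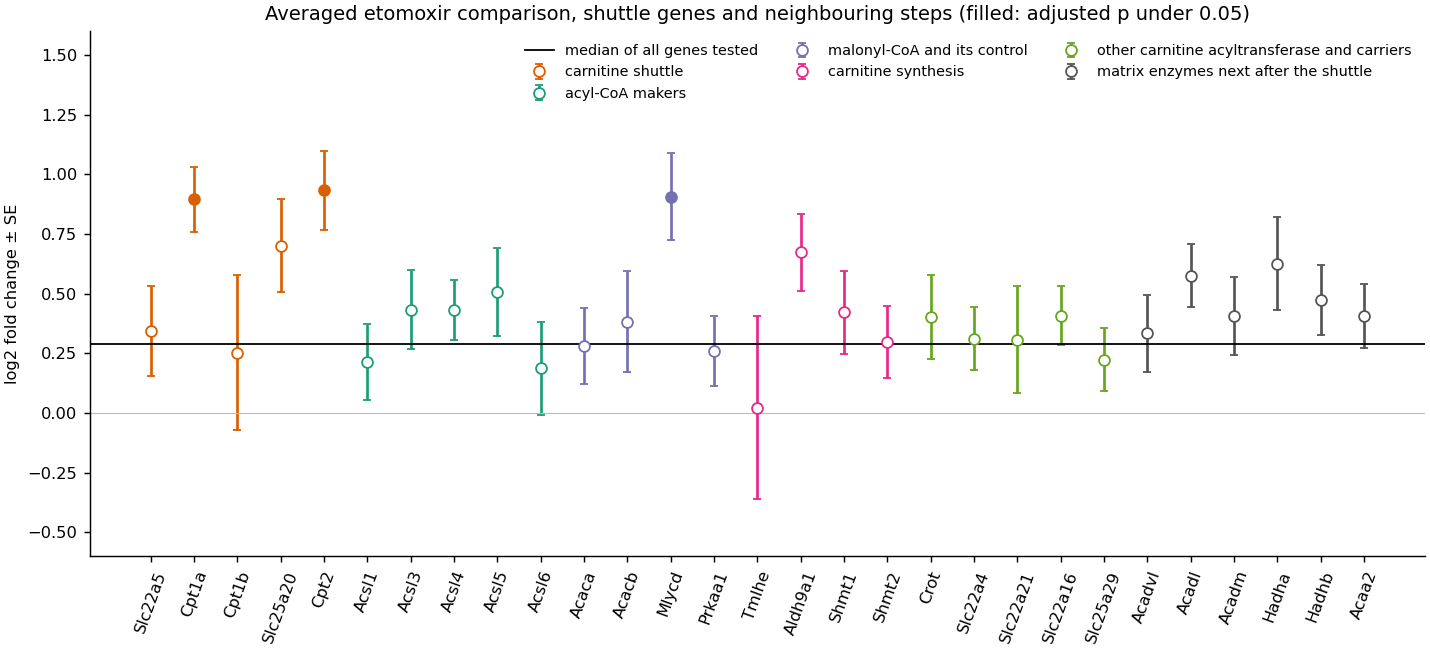
Log2 fold change with its SE (vertical axis) in the averaged etomoxir comparison for the 5 tested shuttle genes and the tested genes of 5 neighbouring steps; filled points had an adjusted p under 0.05 in limma and the line is the median of all genes tested. Cpt1a, Cpt2 and Mlycd are filled, at 0.90, 0.93 and 0.91, as a description.

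The pattern over the 12 libraries was then compared between genes on the median-of-ratios scale, with Pearson's r as a measure of likeness and no test, since the libraries share their depth and treatments. Cpt1a and Cpt2 had r = 0.96, Cpt1a and Slc25a20 0.87, and Cpt2 and Slc25a20 0.85, whereas Slc22a5 had 0.01 to 0.09 with these 3. Of 15534 genes with a mean of at least 50, the 3 most like Cpt1a were 4931413I07Rik (r = 0.992, whose intervals hold the start of Angptl4, a lipoprotein lipase inhibitor), Impa2 (0.987) and Gm17251 (0.986, with the start of Rab11b). Most like Cpt2 were Prtg (0.977), Gm17251 (0.970) and Hilpda (0.968), which encodes a lipid droplet protein. Most like Slc25a20 were Gm27204 (0.927, with the start of Prtg), Ucp3 (0.920), a mitochondrial carrier, and Acot2 (0.917), a mitochondrial acyl-CoA thioesterase. Slc22a5 was most like Tlr2 (0.953), Appbp2 (0.948) and Cxcl10 (0.933).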

How the data were processed

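H3K27ac ChIP-seq was performed by the authors on 4T1 cells with 7.5% human chromatin as a spike-in, and reads were aligned to a merged GRCh38 and mm10 genome in the nf-core ChIP-seq workflow. The deposited signal is the read count per interval times a factor that the authors derived from the percentage of human reads and divided by the highest factor, and 1 library in each set has a factor of exactly 1. Dividing by the smallest value above 0 gave whole numbers for 100% of the deposited signal in every library (tolerance 0.05), which returned the read counts. The factor ranged from 0.398 to 1. No input library was used here.

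Values were summed per gene symbol and tested after log2(value + 1) with limma 3.58.1 under R 4.3.3. A single model held the means of the 6 groups and let the prior variance follow intensity, and it covered features with a mean of at least 10. P-values were adjusted by Benjamini-Hochberg over all features. edgeR (4.0.16) quasi-likelihood tests on recovered reads were an alternative. The scripts were tested on simulated data. A pseudocount of 1 understates changes of low features, and intervals over a gene start (GENCODE) were added after seeing the data. P-values measure the spread between 2 libraries a group, which may be technical. The shuttle genes and lists were chosen with earlier results of these data known. The text names all shuttle genes, for each its strongest interval, the one at or nearest the start and up to 2 others (mean of at least 50) with the largest averaged etomoxir difference, list genes that were called and up to 4 others, and the 3 genes of most similar pattern.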

Additional observations from a re-analysis of the deposited data

How the results depend on the processing

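Counts of shuttle genes called moved with the scale, the libraries fitted and the intervals used, and calls over all genes moved too. Under median-of-ratios scaling, and with the share of reads times the spike factor, 0 genes were called for the averaged etomoxir, acetate and SB204990 comparisons, for etomoxir + acetate against acetate or etomoxir, for acetate on both inhibitors, and 0 of the 3 etomoxir and 17 acetate intervals (at most 5 of all genes). Total-sum scaling gave 0 for SB204990, for the 3 acetate comparisons that had calls and for acetate intervals, 2 for etomoxir + SB204990 against vehicle, 1 with acetate in both groups and 1 for etomoxir against vehicle (95, 45 and 27 of all genes). Signs turned in the averaged comparisons: for etomoxir, Cpt1b (-0.087 median-of-ratios, -0.0091 total-sum) and Slc22a5 (-0.0013 median-of-ratios), for acetate, Slc25a20 (-0.011 median-of-ratios), and for SB204990, under median-of-ratios, total-sum and share scaling, Cpt1a (0.15, 0.16, 0.042) and Cpt1b (0.12, 0.14, 0.018), and under the first 2 Cpt2 (0.063, 0.081) and Slc25a20 (0.0017, 0.020). With 1 library left out, Cpt1b ranged from -0.51 to 0.017 for SB204990, the last without the set 1 library of etomoxir + SB204990. Without the intensity trend, 0 genes were called for averaged etomoxir, SB204990 and etomoxir + acetate against acetate, and 0 etomoxir intervals. For etomoxir + acetate against acetate, edgeR, no filter and a pseudocount of 10 gave 0. A mean of at least 50 raised the count there and changed those of etomoxir and acetate intervals. Nothing is read from this, as calls over all features under that filter are not set beside it. Fitting only the libraries compared gave 4 for averaged etomoxir (12 intervals), for etomoxir + acetate against acetate and for acetate against vehicle, 1 for etomoxir against vehicle, and 0 for SB204990 and for acetate on both inhibitors; over all genes these were 11794, 14229, 11973, 25, 0 and 0. Intervals within 2000 bp of the annotated start gave 0 for averaged etomoxir, SB204990 and etomoxir + acetate against acetate, 2 for averaged acetate and for acetate on etomoxir, and 1 for acetate against vehicle and on both inhibitors (10218, 9205, 4472 and 8130 of 10859 genes for acetate). The strongest interval per gene gave 2 for etomoxir + acetate against acetate and 1 for acetate, etomoxir or both inhibitors against vehicle and for both inhibitors with acetate (147, 5686, 32, 92 and 24 of 18307 genes). The interval over the gene start, added later and tested for 7 genes, gave 5 for acetate against vehicle, 7 for acetate on both inhibitors, 3 for SB204990 and for etomoxir + acetate against acetate, 2 for etomoxir against vehicle and 1 for both inhibitors with acetate (7764, 10467, 10024, 161, 19 and 5 of 11203 genes). The cause was not tested.

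Leaving out 1 library at a time, calls ranged from 1 to 3 for averaged etomoxir, 0 to 4 for SB204990, etomoxir + acetate against acetate, acetate against vehicle and acetate on both inhibitors, 2 to 5 for acetate on etomoxir, 0 to 2 for etomoxir or both inhibitors against vehicle, 0 to 1 for both inhibitors with acetate, 2 to 10 for etomoxir intervals and 11 to 18 for acetate intervals. Calls over all genes for averaged etomoxir, 58 with all libraries, rose steeply when either library of etomoxir + SB204990 was left out. A range of calls over all features is not set beside each of these ranges, so nothing is read from them. With a replicate block for the set number, calls were 1 for etomoxir and for acetate against vehicle and 2 for etomoxir + acetate against acetate. Calls over all genes for these are given above, and were 262 for averaged etomoxir. Over genes, set 1 minus set 2 differences were correlated between pairs of groups. The correlations ran from -0.22 to 0.60 with a median of -0.14, and 4 of 15 were over 0.1. A shift common to a whole set drops out of them, so they cannot settle whether the set numbers pair the samples. Cpt1a, Cpt2, Slc25a20 and Slc22a5 had 81 reads or more per library, and Cpt1b had 29 to 52. In the averaged etomoxir comparison the SE of Cpt1b was 0.32 on the spike-in scale and 0.17 under median-of-ratios scaling. That of Cpt1a was 0.14 and 0.13. Whether depth limits the detection of small Cpt1b differences was not tested.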
